A study of Drosophila melanogaster with 4 samples.

Results

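The closely clustered H2Av regions described here are 500 of the 4698 enriched regions in the list that the authors deposited for both replicates together (the combined list). They lie in the interior of the autosomal arms 2L, 3L and 3R, are narrower than 7000 bp, and have another region of the list within 8 kb on both sides. The interior leaves out the first 3 Mb and last 1.5 Mb of 2L and of 3L, and the first 1.5 Mb and last 3 Mb of 3R, by the midpoint of each region. It held 1923 regions in 62.0 Mb, so the clustered regions were 26.0% of them. The other interior regions comprised 761 narrow regions with such a neighbour on 1 side, 345 narrow regions with none, and 317 regions of at least 7000 bp. Position, width and gap in the combined list chose the members, so these 3 quantities are described and not tested.

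Chromatin immunoprecipitation followed by sequencing mapped H2Av in S2-DRSC, an established line grown from late embryos of male Drosophila melanogaster. The series has 2 H2Av immunoprecipitations and 2 libraries of input chromatin, which is fragmented chromatin taken without the antibody. Every culture took up double-stranded RNA against GFP, 50 µg and then 200 µg, which makes it the control of an RNAi experiment, since flies carry no GFP gene. The antibody was the affinity-purified rabbit polyclonal 9751, raised against a peptide. The lists of the 2 immunoprecipitated libraries and the combined list were used, with no list of the inputs. The description labels of 2 libraries go against their titles and source names: that of immunoprecipitation replicate 2 says only input, and that of input replicate 1 names the antibody. Titles were followed, and whether libraries were exchanged was not tested. Labels do not say whether the replicates are separate cultures, so their spread may be technical. With lists of regions and no counts, the depth behind a value is unknown, and all Wilson intervals below cover counting error only and treat regions as independent.

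H2Av is the only H2A variant of Drosophila melanogaster and combines the roles that H2A.Z and H2A.X have in mammals. Like H2A.Z it is known from nucleosomes near the starts of active genes, and like H2A.X its tail is phosphorylated at DNA breaks. It is also known from heterochromatin. Genes and sequences at the regions were not analysed here: the lists are on FlyBase release 5, and the only annotation used with the series is of release 6. All positions below are on release 5.

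The clustered regions covered 1.80 Mb, or 20.1% of the sequence called in the interior. There were 121 on 2L (23.6% of its interior regions, 95% Wilson interval 20.2 to 27.5), 182 on 3L (27.5%, 24.2 to 31.0) and 197 on 3R (26.3%, 23.3 to 29.6). Per megabase of interior this was 6.54 on 2L, 9.08 on 3L and 8.42 on 3R. The 3 arms differed by less than the width of these intervals in the share, and their median widths lay within 3503 to 3597 bp. Along an arm the regions were unevenly spread. In the 28 windows of 2 Mb that lie wholly in the interior, the number of clustered regions went from 2 to 41, with a median of 14. The fullest window, on 3R from 20 to 22 Mb, held 41 clustered regions among its 93 regions. The window from 20 to 22 Mb on 3L had 39 of 96 and that from 8 to 10 Mb on 3L had 35 of 97. On 2L the fullest, from 6 to 8 Mb, had 32 of 82. The emptiest, from 14 to 16 Mb on 2L, had 2 of 20. These windows were picked after their counts were seen.

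Linking every pair of neighbouring regions at most 8 kb apart gave chains, whose inner narrow regions are the clustered regions. Of the 247 chains of at least 3 regions that touch the interior, 224 held a clustered region and 23 had only wide regions between their ends. The 224 chains had a median of 4 regions (quartiles 3 and 6), and 80 had 3, 47 had 4, 37 had 5 and 29 had 6. The longest had 15. Their span was 25.9 kb at the median (quartiles 18.3 and 40.4 kb), from 6981 bp to 168.3 kb, and regions filled 71.0% of the span at the median (quartiles 63.0 and 80.0%). Besides the 500 clustered regions, these chains held 377 narrow end regions and 181 regions of at least 7000 bp. A wide region was present in 119 of the 224 chains (53.1%), with 152 clustered regions beside 1 wide region and 20 between 2 of them. For the remaining 328 (65.6%) both neighbours were narrow.

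Counting clustered regions alone, there were 258 runs of consecutive ones. Of these runs, 137 (53.1%) were of 1 region, 63 of 2, 23 of 3, 18 of 4, 10 of 5, 4 of 6, 2 of 7 and 1 of 8. The 58 runs of at least 3 regions held 237 clustered regions, or 47.4% of all.

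**Figure D1:**
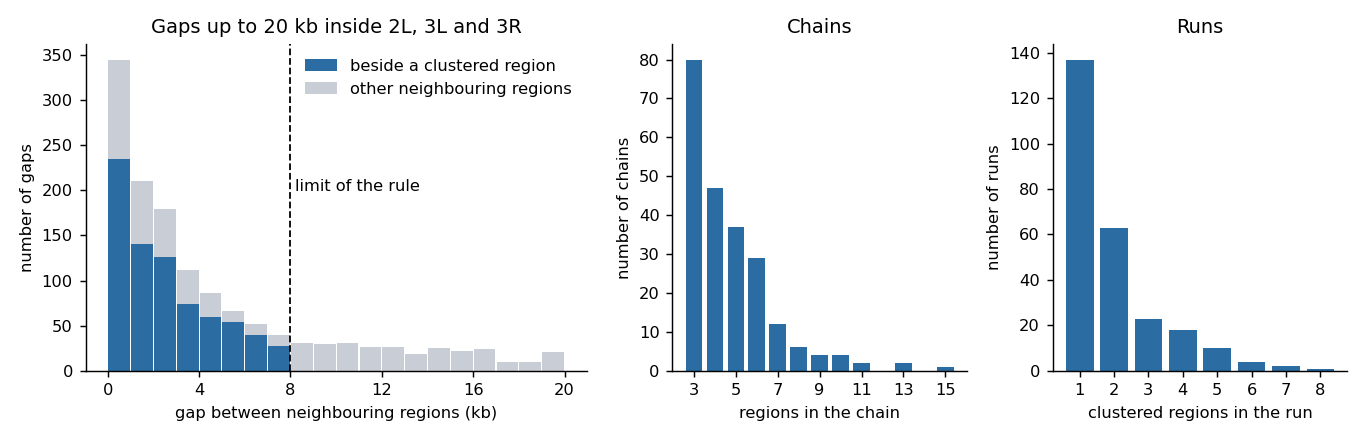
The left panel counts gaps (in kb, bins of 1 kb, up to 20 kb) between neighbouring regions of the combined list inside 2L, 3L and 3R, with gaps beside a clustered region in blue and all others in grey, and the dashed line at the 8 kb limit. The other panels count the 224 chains by their number of regions and the 258 runs by their number of clustered regions, and both fall off from the shortest, with maxima of 15 and 8.

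The rule limits gaps beside clustered regions to 8 kb, so they are short by selection. Their number fell steadily towards that limit. The median of all interior gaps, given next, has no such limit. All interior neighbours together were separated by a median of 5314 bp, and 1090 of 1920 gaps (56.8%) were within 8 kb, while 555 exceeded 20 kb. The 758 gaps beside clustered regions had a median of 2054 bp (quartiles 766 and 3885 bp), from 1 to 7945 bp. Of these, 53 (6.99%) were at most 200 bp, 83 lay over 200 and up to 500 bp, and 99 over 500 and up to 1000 bp. Another 141 lay over 1 and up to 2 kb and 200 over 2 and up to 4 kb, against 114 from 4 to 6 kb and 68 from 6 to 8 kb. Up to 1 kb lay 235 of the 758, and 345 of the 1090 interior gaps within 8 kb, a similar share. Gaps between 2 clustered regions had a median of 2217 bp (n = 242), and gaps to a wide region one of 1850 bp (n = 192). The gap on the nearer side of a clustered region was 964 bp at the median (quartiles 360 and 2110 bp) and never over 6665 bp.

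Few of these gaps were bridged by a region of a replicate list. A gap counts as bridged where 1 region of a replicate list overlaps the regions on both sides of it. A gap beside a region missing from that list cannot be bridged but is still counted among the 758, which lowers the shares. Replicate 1 bridged 0 of the 758 gaps (3 gaps would be 0.396%). Replicate 2 bridged 2 (0.264%), of 5 bp and 1 bp. One lies on 2L after the region that ends at 10456808, the other on 3L after the region that ends at 19919668. Both are overlaps at the edge of a region, and neither joined 2 regions into 1. On 2L replicate 2 still drew 2 regions, the first ending at 10456790 and the second starting at 10456791. On 3L its region ended at 19919671, just past the start of the next combined region at 19919670. The replicate 2 region matched to that next region lay 257 bp further on. In the other direction, 8 clustered regions overlapped 2 regions of replicate 1 and 7 overlapped 2 regions of replicate 2, and none overlapped more. For 493 gaps the regions on both sides had a match in both replicate lists, a match being each other's largest overlap. The gap between the matches was 2677 bp at the median in replicate 1 and 2718 bp in replicate 2, against 2173 bp in the combined list. It was wider than in the combined list for 469 of the gaps (95.1%) in replicate 1 and for 482 (97.8%) in replicate 2, by a median of 187 and 231 bp. Of the 387 clustered regions in both lists, 311 held their replicate 1 match wholly inside them and 339 their replicate 2 match. Such a match cannot bridge a gap, so the low shares are partly fixed by how the lists are drawn and are no check on the gaps. With the rule on the list of replicate 1, 11.1% of the chosen regions stood beside a gap that replicate 2 bridged. With the rule on replicate 2, 13.8% stood beside a gap that replicate 1 bridged. Between the replicates the same gap differed by a median of 141 bp, and 90% of the differences were at most 885 bp. In each replicate list 16 of the 493 gaps exceeded 8 kb. Where a region was split in a replicate list, such a gap runs from its larger piece and can hold the smaller one.

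The chain of 15 regions, on 3L from 8101194 to 8208494, spanned 107.3 kb with 11 clustered and 2 wide regions and 65.1% of its span filled. It mixed high and low scores. The authors' score of a region has no stated scale and is used here only to describe and compare regions of these lists. The clustered region from 8128138 to 8133144 scored 2.82, and the next, after a gap of 4263 bp, scored 0.59. Then followed 2 narrow regions, after gaps of 121 and 79 bp, that scored 0.48 and 0.51 and were in neither replicate list. The region from 8149966 to 8154638, which came next, scored 1.96, with 2.12 in replicate 1 and 2.22 in replicate 2. In all, 13 of the 15 regions were in both replicate lists. In each replicate list the limit of 8 kb broke the chain into 3 pieces.

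The chain of 13 regions on 3R, from 19930792 to 20021502, spanned 90.7 kb and had 10 clustered regions. Of its 13 regions 10 were in both replicate lists and 3 in neither, and those 3 were 1063 to 1165 bp wide and scored 0.51 to 0.62. The strongest clustered region of the chain ran from 19953748 to 19957946 and scored 2.57, 2.60 in replicate 1 and 2.72 in replicate 2. The second chain on 3R, from 11019438 to 11117602, had 11 regions in 98.2 kb, with 6 clustered and 3 wide, and all 11 were in both replicate lists. Its widest region, from 11041694 to 11052844, lay 17 bp from the clustered region before it and was split into 2 regions in each replicate list. The piece nearer the chain's start ran from 22.3 to 27.1 kb after the first base of the chain in replicate 1, with a score of 2.14, and from 23.2 to 27.2 kb in replicate 2, with a score of 2.69. The larger piece began at 11046649 in replicate 1 and at 11047199 in replicate 2.

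On 2L the longest chain, from 10290556 to 10458868, also had 13 regions and the largest span of all 224, 168.3 kb. It was made mainly of wide regions, with 8 of them and 3 clustered regions, and 87.4% of its span was filled. A clustered region of this chain from 10394458 to 10398620 scored 2.01, another from 10411672 to 10416598 had 1.92, and both replicate lists held both. The second chain of 2L, from 5997492 to 6072622, had 10 regions in 75.1 kb, of which 6 were clustered and 5 scored below 1. The weakest, from 6017442 to 6018700, scored 0.30 and was in neither replicate list. The second chain of 3L, from 20414268 to 20491734, had 10 regions in 77.5 kb, of which 8 were clustered. It was a weak chain, with 6 of the 10 scores below 1 and a median of 0.63, against a median of 1.93 in the longest chain of 3L.

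**Figure D2:**
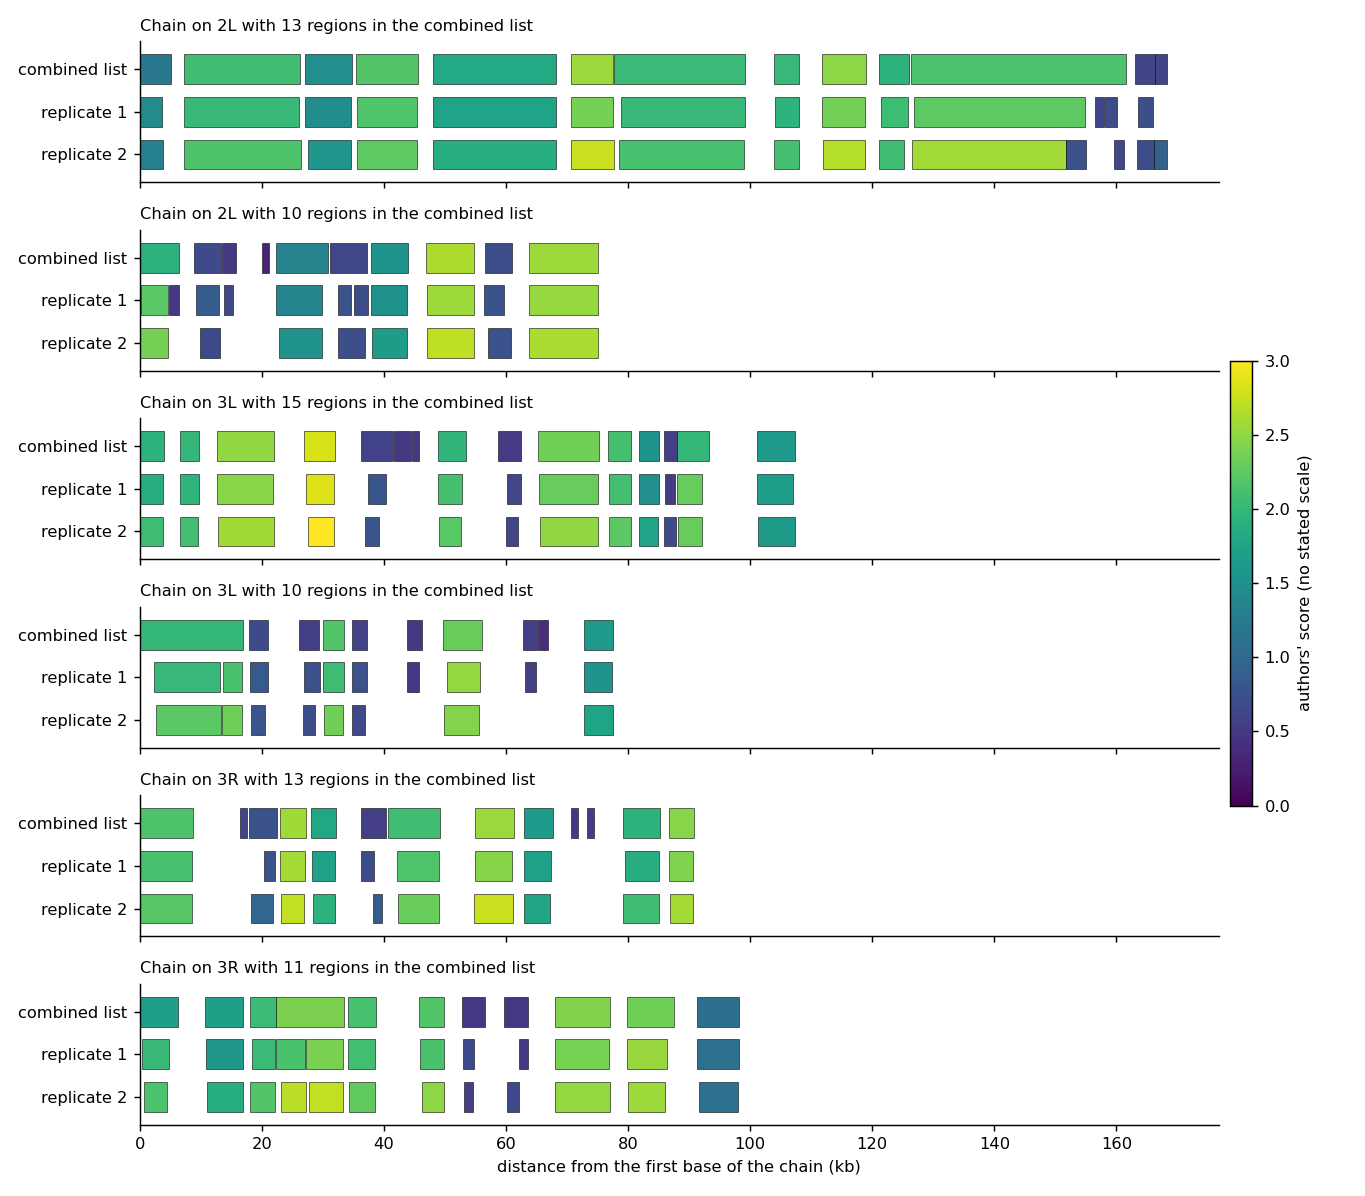
Each panel draws one of the 6 chains described (the 2 with most regions on each arm) as boxes along the distance from its first base in kb, in the combined list, replicate 1 and replicate 2 from top to bottom, coloured by the authors' score. Most strong regions (green to yellow) keep their place and edges in all 3 lists, while dark narrow boxes with scores near 0.5 are shorter or missing in the replicate lists.

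The longest runs are described for each arm, 2 on each. The run of 8, on 3L from 20432190 to 20481162, is the core of the weak chain just described and spanned 49.0 kb. Its scores lay at 0.38 to 0.68 in 6 regions and at 2.19 and 2.32 in the remaining 2. Of the 8 regions, 5 were in both replicate lists, 2 in replicate 1 only and 1 in neither. A run of 7 on 3L, from 11682718 to 11727864, had 5 regions that scored 1.13 to 2.24 and were in both lists. Its region from 11706568 to 11707984 scored 0.37, lay 5 bp from the one before it and was in neither. The run of 7 on 2L, from 6912170 to 6952056, ended in 3 regions 49 and 183 bp apart, whose scores were 0.65, 1.49 and 2.66. All 5 regions of a run on 2L from 6453162 to 6482266 were in both lists. So were all 6 of a run on 3R from 23077316 to 23119702, which includes the highest score of all clustered regions. The run of 6 on 3R from 8503098 to 8532616 had 4 in both and 2 in neither, and those 2 scored 0.40 and 0.36.

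The widths of the clustered regions had a median of 3559 bp (binomial 95% interval of the median 3453 to 3699; quartiles 2418 and 4539 bp), from 1001 to 6977 bp. The fullest class, 3 to 4 kb, held 151 regions, against 87 from 1 to 2 kb, 82 from 2 to 3 kb, 92 from 4 to 5 kb, 42 from 5 to 6 kb and 46 from 6 to 7 kb. Medians were 3281 bp (3195 to 3419) for narrow regions with a neighbour on 1 side and 3079 bp (2869 to 3319) for those with none. The interval of the clustered regions lies above both, though such intervals treat regions as independent. Width enters the rule, and no test was made.

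Scores fell into 2 groups. In bins of 0.2, 119 clustered regions scored from 0.4 to 0.6, the number dropped to 10 from 1.0 to 1.2, and it rose again to 52 from 2.0 to 2.2. With a limit of 1, set where earlier results of these lists had put it, 300 regions scored at least 1 and 200 (40.0%, 95% Wilson interval 35.8 to 44.4) scored below it. The median score of the first was 2.04 and that of the second 0.49. The low-scoring regions were the narrow ones, with a median of 2147 bp against 4026 bp, and no region of at least 1 was narrower than 2329 bp. Across regions, width and score correlated with Spearman's rho of 0.647 (n = 500). Within the 300 it was 0.130 and within the 200 it was 0.625. Both measures come from the same calls, and regions are not independent. The share below 1 was 36.0% (32.7 to 39.5) for narrow regions with a neighbour on 1 side and 33.6% (28.8 to 38.8) for those with none. These intervals overlap that of the clustered regions. Of the 317 wide regions 1 scored below 1.

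**Figure D3:**
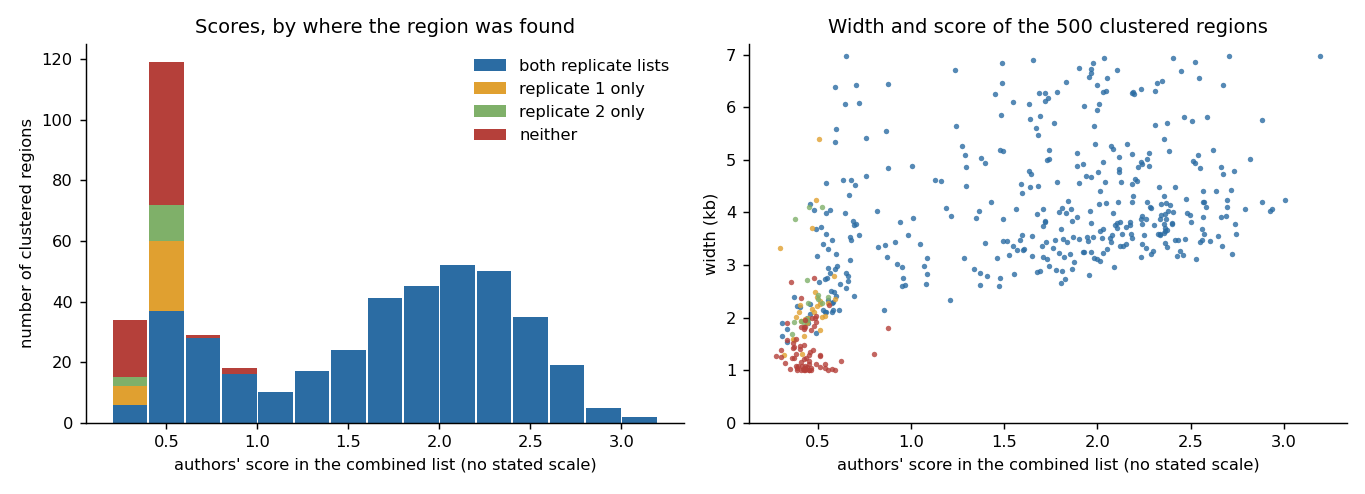
On the left, stacked bars count the clustered regions by the authors' score in bins of 0.2, coloured by whether the region was in both replicate lists, in 1 of them or in neither. On the right, each of the 500 points is a clustered region, with its width in kb against its score in the same colours: all 300 points at scores of at least 1 are blue, and most red points lie below 2 kb.

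Scores of clustered regions adjacent to each other in a chain were only weakly related. Over the 242 pairs of adjacent clustered regions, the scores correlated with Spearman's rho of 0.084 and Pearson's r of 0.061, and the widths with 0.101 and 0.104. These pairs share regions with one another, and the values are a description. Of the 200 low-scoring regions, 80 (40.0%) stood between 2 regions of at least 1, 97 had 1 low-scoring neighbour and 23 had 2. Of the 300 others, 150 (50.0%) stood between 2 regions of at least 1, 127 had 1 low-scoring neighbour and 23 had 2. A clustered region scored above both neighbours in 149 cases, below both in 176 and between them in 175. The median gap was somewhat shorter where scores were low. It was 1459 bp where both regions scored below 1 (n = 97), 1747 bp where 1 of them did (n = 325) and 2338 bp where neither did (n = 336). Over the 500 clustered regions, however, nearest gap and score were almost unrelated, with Spearman's rho of 0.078 and Pearson's r of 0.093.

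Of the 500 clustered regions, 416 shared at least 1 bp with the list of replicate 1 (83.2%, 79.7 to 86.2, a 95% Wilson interval) and 402 with that of replicate 2 (80.4%, 76.7 to 83.6). The mean was 81.8% ± 1.98 (SD, n = 2 replicate lists). In both lists were 387 (77.4%, 73.5 to 80.8), in replicate 1 only 29 (5.80%), in replicate 2 only 15 (3%) and in neither 69 (13.8%, 11.1 to 17.1). Since the combined list belongs to these same 2 replicates, these shares describe the lists and are no independent check. All 300 regions scoring at least 1 were in both lists (100%, 98.7 to 100), and every loss was among the 200 below 1. Of those, 87 were in both (43.5%, 36.8 to 50.4), 29 in replicate 1 only, 15 in replicate 2 only and 69 in neither (34.5%, 28.3 to 41.3). The losses lay mostly below a score of 0.6. In both lists were 6 of 34 regions scoring 0.2 to 0.4 and 37 of 119 scoring 0.4 to 0.6. From 0.6 to 0.8 it was 28 of 29, and from 0.8 to 1.0 it was 16 of 18.

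Width went along with recovery. Of the 87 clustered regions under 2000 bp, 7 were in both lists (8.05%, 95% Wilson interval 3.95 to 15.7). All 87 also scored below 1, so width and score cannot be told apart there. Of the 233 from 2000 to under 4000 bp, 204 were in both (87.6%, 82.7 to 91.2), and of the 180 from 4000 bp on, 176 were (97.8%, 94.4 to 99.1). The narrowest region was 1301 bp in replicate 1 and 1304 bp in replicate 2, against 1001 bp in the combined list. Of the 41 clustered regions narrower than 1304 bp, 40 were in neither list and 0 in both (95% Wilson interval 0 to 8.57%). This loss is partly set by the widths that the replicate lists hold, so it is a trait of the lists. Of the 459 at least that wide, 387 were in both (84.3%, 80.7 to 87.4) and 29 in neither (6.32%, 4.43 to 8.93). Among the low-scoring regions of at least 1304 bp, 87 of 159 were in both (54.7%, 47.0 to 62.3).

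Clustered regions with the closest neighbours had the largest share in neither replicate list among 5 classes of distance. With the nearest gap at most 500 bp, 32 of 159 were in neither (20.1%, 95% Wilson interval 14.6 to 27.0). With it over 500 and up to 1000 bp, 7 of 96 were (7.29%, 3.58 to 14.3). These intervals nearly touch and treat regions as independent, so no difference between the classes is read from them. The shares in both lists were 69.2% (61.6 to 75.8) and 83.3% (74.6 to 89.5), with intervals that overlap. From 1 to 2 kb the share in neither was 14.3% (8.99 to 22.0), from 2 to 4 kb it was 13 of 108 (7.17 to 19.5%) and from 4 to 8 kb it was 1 of 25 (0.71 to 19.5%). The interval of the closest class overlaps each of these, and the shares did not fall steadily with distance. Gap also enters the rule. No test was made between these classes. Scores below 1 made up 47.2% of the regions with a nearest gap of at most 500 bp and 33.3% of those in the next class. Among low-scoring regions alone, the intervals overlapped. Of the 75 low-scoring clustered regions with a gap of at most 500 bp, 26 were in both lists (34.7%, 95% Wilson interval 24.9 to 45.9) and 32 in neither (42.7%, 32.1 to 53.9). Of the 125 with both gaps over 500 bp, 61 were in both (48.8%, 40.2 to 57.5) and 37 in neither (29.6%, 22.3 to 38.1). By arm, 80.99% of the clustered regions of 2L were in both lists (73.1 to 87.0), 76.9% of 3L (70.3 to 82.4) and 75.6% of 3R (69.2 to 81.1), again with overlapping intervals. In 85 of the 224 chains (37.9%, 31.8 to 44.5) every region was in both lists, and 94 chains had at least 1 region in neither.

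The share in both lists, 77.4% of clustered regions, was 76.5% (582 of 761, 95% Wilson interval 73.3 to 79.4) of narrow regions with a neighbour on 1 side. Among narrow regions with no neighbour it was 291 of 345 (84.3%, 80.1 to 87.8), an interval that overlaps that of the clustered regions. All 317 wide regions were in both lists (98.8 to 100). The share in neither list, 13.8% of clustered regions, was 15.2% (116 of 761, 12.9 to 17.97) of narrow regions with a neighbour on 1 side. Among narrow regions with no neighbour it was 8.41% (29 of 345, 5.92 to 11.8). Both intervals overlap that of the clustered regions (11.1 to 17.1). Among regions below 1, 43.5% of the clustered ones were in both lists, against 35.4% (30.0 to 41.2) with a neighbour on 1 side and 53.4% (44.4 to 62.3) with none. No test was made between these classes, since regions of the same libraries are not replicates of a condition.

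**Figure D4:**
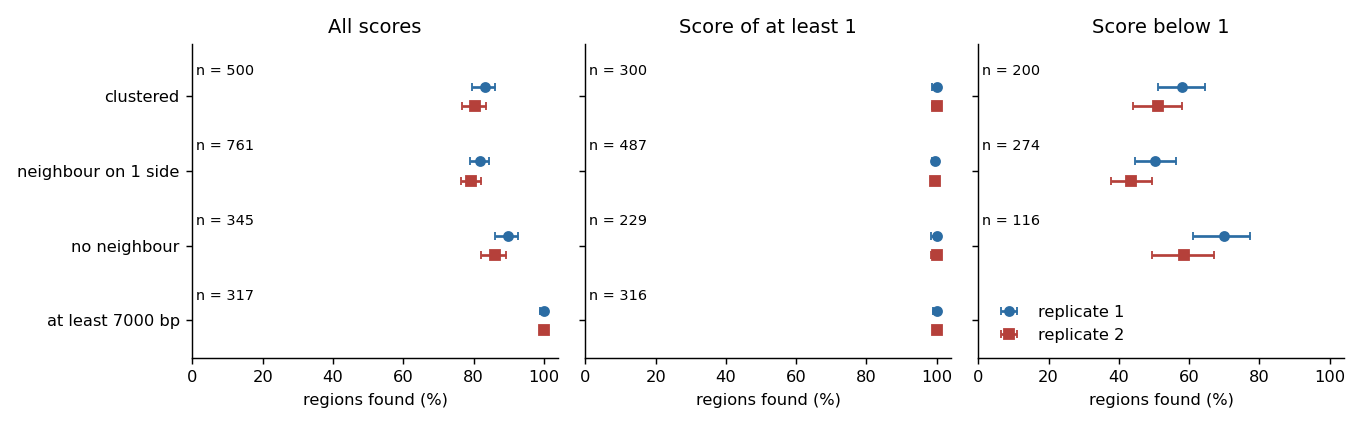
Points give the percentage of regions of the combined list that overlap a region of replicate 1 (blue circles) or replicate 2 (red squares), with 95% Wilson intervals, for 4 classes of interior regions from clustered at the top to wide at the bottom. The panels hold all scores, scores of at least 1 and scores below 1, where the single wide region is not drawn. Clustered regions lie at 83.2% and 80.4% over all scores, at 100% in both lists for scores of at least 1, and at 58.0% and 51.0% below 1.

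The 387 clustered regions in both lists each had a match in both. The scores of the matches in replicates 1 and 2 correlated with Pearson's r of 0.983 and Spearman's rho of 0.974 across regions, which share their libraries and the range of scores. Within the 300 regions of at least 1 Pearson's r was 0.954, and within the 87 low-scoring ones it was 0.778. In the 300, the score was higher in replicate 2 for 254 (84.7%, 95% Wilson interval 80.2 to 88.3), and the medians were 2.21 in replicate 2 and 2.05 in replicate 1. In the 87 it was higher in replicate 2 for 34 (39.1%, 29.5 to 49.6), and the medians were 0.70 in replicate 2 and 0.72 in replicate 1. The low-scoring matches were narrower than the regions they matched, with median widths of 2303 bp in replicate 1 and 2188 bp in replicate 2, against 3101 bp in the combined list. For the 300 the medians were 3790 and 3760 bp against 4026 bp. Starts of the matches in replicates 1 and 2 lay 75 bp apart at the median in the 300 and 172 bp in the 87. Ends lay 69.5 and 248 bp apart.

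**Figure D5:**
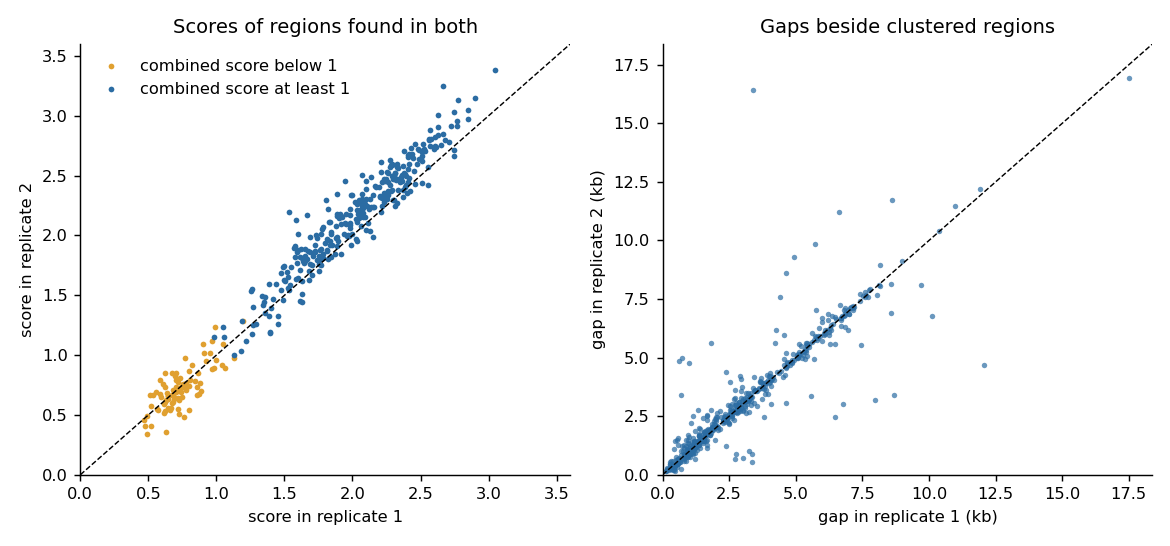
On the left, each of 387 points is a clustered region found in both lists, with the authors' score in replicate 2 against that in replicate 1, blue for combined scores of at least 1 and orange below; 254 of the 300 blue points lie above the dashed line of equal scores and 34 of the 87 orange ones. On the right, each of 493 points is a gap beside a clustered region, in kb in replicate 2 against replicate 1, with most points on or near the line of equal gaps.

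The highest score of all clustered regions, 3.20, belonged to a region on 3R from 23095486 to 23102462, which at 6977 bp was also the widest. It scored 3.05 in replicate 1 and 3.38 in replicate 2, and its neighbours, 3039 bp before and 2613 bp after it, scored 2.33 and 1.63. The second on 3R, from 22700146 to 22704374, scored 3.01, with 2.90 in replicate 1 and 3.15 in replicate 2. It stood between 2 weak regions, 1593 and 1485 bp away, that scored 0.60 and 0.71. The top clustered region of 2L ran from 18687380 to 18691404, with a score of 2.92, and 2.67 in replicate 1 and 3.25 in replicate 2. The next on 2L, from 20059134 to 20063332, scored 2.88, with 2.85 and 2.97, and had a neighbour 257 bp away. The top 2 of 3L were that from 6947302 to 6953060, with a score of 2.88 and 2.75 and 3.03 in replicates 1 and 2, and that from 8128138 to 8133144 in the longest chain. High-scoring clustered regions sat beside both weak and strong neighbours.

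Wide clustered regions covered a broad range of scores. On 2L the region from 11118430 to 11125396 spanned 6967 bp and scored 2.70. The one from 6933160 to 6940122 spanned 6963 bp but scored 0.65. It was drawn much narrower in the replicate lists, at 5443 bp in replicate 1 and 2943 bp, as the larger of 2 pieces, in replicate 2. On 3L the widest were the region from 19594212 to 19600914 (6703 bp, score 1.24) and that from 6173210 to 6179784 (6575 bp, score 1.96). The second widest of 3R, from 21086216 to 21093056, spanned 6841 bp with gaps of 103 bp and 183 bp. Replicate 2 drew it as 1 region and replicate 1 as 2. The narrowest clustered regions, of 1001 bp, were 1 on each arm, starting at 20792444 on 2L, at 19981500 on 3L and at 20617862 on 3R. They scored 0.39, 0.46 and 0.59 and were in neither list. The smallest gap, 1 bp, adjoined the clustered region from 10734520 to 10738940 on 2L and those from 12137670 to 12141356 and from 19914740 to 19919668 on 3L. These 3 scored 2.72, 2.03 and 2.52 and were in both lists.

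Membership itself depended on the list. The same rule gave 433 regions in the list of replicate 1 and 429 in that of replicate 2. Of the 433, 348 overlapped a region chosen in replicate 2 (80.4%, 95% Wilson interval 76.4 to 83.8), and of the 429, 344 overlapped one chosen in replicate 1 (80.2%, 76.2 to 83.7). Of the 500 clustered regions of the combined list, 326 (65.2%) overlapped a region that the rule chose in replicate 1, 312 (62.4%) one that it chose in replicate 2, and 277 (55.4%, 51.0 to 59.7) both. In replicate 1, 86 more fell on a narrow region with a neighbour on 1 side, 4 on an isolated one and 84 on none. The counts in replicate 2 were 85, 5 and 98. In the other direction, 93 of the 433 regions chosen in replicate 1 (21.5%, 17.9 to 25.6) and 107 of the 429 chosen in replicate 2 (24.9%, 21.1 to 29.2) lay on a combined region of at least 7000 bp. Of the 224 chains, 148 (66.1%) held a chosen region in both replicate lists.

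Near the limits, the values ran on without a break. Just inside the gap limit were regions on 3R from 20933360 to 20938944, on 3L from 14782004 to 14785182 and on 3L from 20223840 to 20225144, with larger gaps of 7915, 7925 and 7945 bp and scores of 0.60, 2.43 and 0.41. Just outside were regions on 2L from 13189462 to 13193704, on 3L from 9456642 to 9457700 and on 3R from 23518616 to 23522656, with larger gaps of 8041, 8061 and 8061 bp and scores of 2.14, 0.49 and 1.45. Just inside the width limit were the 3 widest clustered regions, of 6963, 6967 and 6977 bp, with scores of 0.65, 2.70 and 3.20. Just outside, with both gaps within 8 kb, were regions of 7003 bp on 2L from 12044126 to 12051128, of 7021 bp on 3R from 20637596 to 20644616 and of 7025 bp on 2L from 10361118 to 10368142, with scores of 1.65, 2.19 and 2.55. In all, 140 regions of at least 7000 bp had both gaps within the limit, 41 of them under 8000 bp.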

How the data were processed

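Deposited were 3 lists of enriched regions, each with start, end and a score: 1 for each of the 2 H2Av immunoprecipitations and 1 for the replicate set. Per the file headers the positions are on FlyBase release 5. The submitters' processing notes name Bowtie 0.12.7, a read aligner; not given in the sources used here are the program that called regions, its cutoff, whether it used the input, and how the combined list arose. The score deposited by the authors has no stated scale, and the signal behind it is of unknown depth. Samples were grouped by title. Gaps count the bases between neighbouring regions of any width. Overlap needs 1 bp. Chains link regions at most 8 kb apart. No test was made: the rule uses the combined list, and there is 1 group of 2 replicates. Shares carry 95% Wilson intervals and medians binomial ones. Named regions are the 2 chains with most regions, the 2 longest runs, and the 2 highest-scoring and 2 widest clustered regions of each arm, the narrowest, those with the smallest gap, and the 3 on each side of each limit. The members and lists were chosen with earlier results of these data known. Selection, chaining and overlap were tested on simulated data. Alternatives changed the limits, the list, the overlap and the margins. Python 3.11.15, NumPy 2.4.6, pandas 2.3.3, SciPy 1.17.1 and matplotlib 3.10.9 were used.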

Additional observations from a re-analysis of the deposited data

How the results depend on the processing

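Of 93 values computed under 13 alternatives, 60 stayed within the interval of the reported value or, for counts, within 1.5 times of it, and the cause of each change below was not tested beyond what the alternative does by construction. Some of the 60 could not change. Chains are linked without regard to width, so their number stayed at 247 under the other width limits. A gap limit of 4 kb left 280 clustered regions with a median gap of 1257 bp, and one of 12 kb gave a median gap of 2389 bp. With a width limit of 5000 bp, 72.8% were in both lists, with a median width of 3318 bp and a median score of 1.36; with one of 10000 bp the median width was 3817 bp. Keeping combined-list regions that scored no lower than the list's median left 107 clustered regions in 95 chains of at least 3, with a median of 3 regions, 100% in both lists, 0% in neither, and medians of 4059 bp in width, 2465 bp in gap and 2.12 in score. With no margins, 71.4% were in both lists and 18.6% in neither, and the median score was 1.29. The rule on replicate 1 gave regions of which 92.8% were in replicate 2 and 7.16% were not, with a median score of 1.78 and 11.1% beside a gap that replicate 2 bridged. The rule on replicate 2 gave 95.6%, 4.43%, 1.97 and 13.8%. Regions within 200 bp merged, and an overlap of 50% of both regions, each gave 0% beside a bridged gap, against 0.4%. Leaving out either replicate list gave 80.4% to 83.2% found, 16.8% to 19.6% not found and 0% to 0.4% beside a bridged gap. Chosen after seeing the data, the limit to clustered regions of at least 1304 bp gave 84.3% in both and 6.32% in neither. No paired analysis was possible because the inputs have no list among those used and no result comes from a test. Without counts, what depth limits is unknown.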

Other observations

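The lists differ in how they are drawn. All 4698 starts and all 4698 ends of the combined list are even numbers, while 2029 of 4198 starts in replicate 1 and 2006 of 4070 in replicate 2 are. The replicate 2 list holds 1 record typed as depleted, on 3L from 3417313 to 3419170, with a score of -0.030. Replicate 1 has an enriched region there from 3417257 to 3419152 with a score of 0.11, and the combined list one from 3417266 to 3419188 with a score of 0.00099, the lowest of that list. That region has no neighbour within 8 kb and is not among the clustered regions.

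In the other narrow interior regions the order of the replicate scores also differed between high and low scores. Among those of at least 1, the score was higher in replicate 2 for 411 of 484 regions with a neighbour on 1 side (84.9%, 95% Wilson interval 81.5 to 87.8) and for 197 of 229 with none (86.0%, 80.9 to 89.9). Below 1 it was higher in replicate 2 for 50 of 97 (51.5%, 41.7 to 61.2) and for 29 of 62 (46.8%, 34.9 to 59.0).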
